A study of Mus musculus with 8 samples.

Results

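The regions described here are those enriched for 5-hydroxymethylcytosine (5hmC) at the distal ends of the mouse autosomes. A region belonged to them when its start lay within 5 Mb of the largest end coordinate listed for its chromosome in either tissue, on chromosomes 1 to 19. Their number was 1155 of the 21990 regions listed for hippocampus and 648 of the 11664 listed for left ventricle, 1803 of 33654 in all. No measured count entered this choice. The largest listed end is that of the last region found, not the telomere itself, and the distance between these points was not measured.

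The libraries come from 5hmC DNA immunoprecipitation sequencing (DIP-seq), in which an antibody to the modified base pulls down DNA fragments that are then sequenced. The mice were C57BL/6, an inbred laboratory strain, and received either sham irradiation (0 Gy) or 1 Gy of protons. DNA was taken from hippocampus and left ventricle 20 weeks later and combined from 5 mice in each treatment group. Each of the 4 groups had 2 pools, 8 libraries in all, and the labels do not tell whether a pool held all 5 mice or some of them. The groups are sham hippocampus, irradiated hippocampus, sham ventricle and irradiated ventricle, and no other allele or agent is named. A tissue here is a mixture of cell types, so a change in its cells and a change in 5hmC per cell cannot be told apart. These are DNA counts without gene names, so the labelled tissues were not checked against marker genes.

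In 5hmC, a hydroxyl group has been added to 5-methylcytosine by a TET dioxygenase. The mark is abundant in neurons of the adult brain, sparser in most other tissues, and lies mainly in the bodies and enhancers of active genes. Mouse autosomes are acrocentric: the centromere sits at the low-coordinate end and the distal telomere at the high-coordinate end. The DNA near distal telomeres is, on many mammalian chromosomes, rich in genes and in CpG dinucleotides.

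Region totals differed between the libraries, which bears on everything that follows. They were 266361 and 110699 counts for sham hippocampus, 1912037 and 1628905 for irradiated hippocampus, 81794 and 49649 for sham ventricle, and 86857 and 111035 for irradiated ventricle. In both tissues the dose groups therefore do not overlap in depth, the irradiated pools being deeper, by far the most in hippocampus. Counts thinned to equal totals are given beside the dose test.

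Distal ends carried more 5hmC regions per megabase than the rest of the autosomes in both tissues. Hippocampus had 12.2 regions per Mb in the 95 Mb of distal sequence and 8.91 per Mb in the remaining 2306.8 Mb. That is a ratio of 1.36 (95% interval from exact binomial bounds 1.28 to 1.45). Ventricle had 6.82 against 4.71 regions per Mb, a ratio of 1.45 (1.34 to 1.57). The intervals cover counting error only, and each tissue has a single merged list, so density has no replicate check. The opposite, centromere-proximal 5 Mb of listed sequence held 7.85 regions per Mb in hippocampus and 4.16 in ventricle, fewer than the rest of the autosomes. Distal regions made up 5.32% of autosomal regions in hippocampus and 5.63% in ventricle.

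The outermost megabase was the sparsest of the 5. Counted inward from the end in 1 Mb steps, hippocampus had 8.21, 11.2, 14.9, 14.3 and 12.2 regions per Mb. Ventricle had 5.26, 6.11, 8.11, 7.26 and 7.37. The density stayed high beyond the 5 Mb limit: between 5 and 9 Mb from the end the steps held 13.5 to 14.8 regions per Mb in hippocampus and 7.63 to 9.11 in ventricle. At 9 to 10 Mb they held 9.37 and 5.68. With a limit of 2.5 Mb the density ratio was 1.17 in hippocampus and 1.24 in ventricle, and with 10 Mb it was 1.46 and 1.59.

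**Figure D1:**
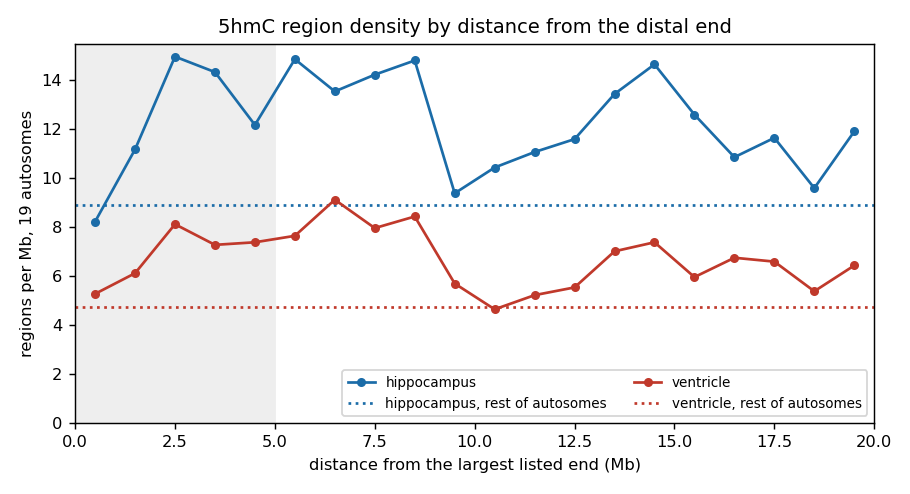
Regions per Mb over the 19 autosomes (vertical axis) in 1 Mb steps inward from the largest listed end (horizontal axis, Mb), with the density of the rest of the autosomes as dotted lines and the last 5 Mb shaded. Hippocampus starts at 8.21 regions per Mb, below its dotted line, and reaches 14.9 between 2 and 3 Mb. Ventricle starts at 5.26 and reaches 8.11 there.

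The high density came from some ends and not others. In hippocampus, 14 of the 19 ends were denser than the rest of their own chromosome and 5 were sparser, with ratios from 0.265 to 2.26 and a median of 1.47. In ventricle, 13 were denser and 6 sparser, with ratios from 0.242 to 2.76 and a median of 1.32. Chromosomes 3, 12, 13, 17 and 18 had sparse ends in both tissues, and 13 other chromosomes had dense ends in both. The end of chromosome 19 was denser in hippocampus (14.2 against 10.2 regions per Mb) and slightly sparser in ventricle (4.80 against 5.15).

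In hippocampus most distal regions lay on chromosomes 11 (111 regions) and 4 (107 regions), and fewest on chromosome 18 (13 regions). Ventricle had most on chromosome 11 (78 regions) and fewest on chromosome 18 as well (6 regions). The end of chromosome 4 was the most enriched in hippocampus relative to its own chromosome, at 21.4 against 9.49 regions per Mb. The end of chromosome 11 was the most enriched in ventricle, at 15.6 against 5.66. The 6 fullest ends held 46.7% of the hippocampal and 54.6% of the ventricular distal regions. Over the 19 ends, the numbers of regions in the tissues had a Spearman correlation of 0.835, given as a description, since both lists share the same genome sequence.

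**Figure D2:**
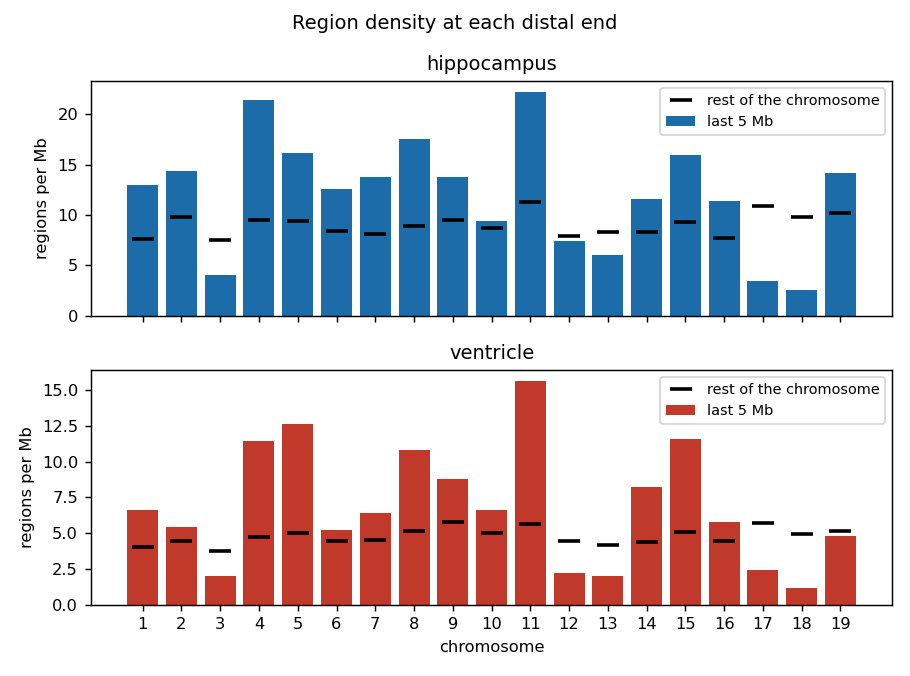
Regions per Mb in the last 5 Mb of each autosome (bars) and in the rest of the same chromosome (black marks), for hippocampus above and ventricle below. Bars exceed the marks on 14 chromosomes in hippocampus and 13 in ventricle, and fall below them on chromosomes 3, 12, 13, 17 and 18 in both.

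Distal regions were more often wider than the common width of 2544 bp. That width was the median for distal and other regions alike, and 73.9% of the hippocampal and 78.2% of the ventricular distal regions had it exactly, against 78.4% and 80.5% elsewhere on the autosomes. Wider regions numbered 285 in hippocampus, 24.7% of the distal regions against 20.4% of the rest. In ventricle they numbered 122, 18.8% against 15.2%. Wider regions made up 13.5% of the hippocampal regions in the outermost megabase and 24.6 to 29.0% in the next 4. In ventricle these shares were 11% and 18.6 to 21.7%. Between 5 and 9 Mb from the end, 23.7 to 29.4% of hippocampal and 16.6 to 23.1% of ventricular regions were wider. Of the centromere-proximal regions, 21.4% and 16.7% were. The greater width is therefore not particular to the last 5 Mb. On the 5 ends that were sparse in both tissues, 11.97% of hippocampal and 8.16% of ventricular regions were wider, against 26.1% and 19.8% on the dense ends of each tissue. Widths ran from 1836 to 6459 bp in hippocampus and from 1546 to 6000 bp in ventricle.

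Neighbouring regions stood closer together at the ends, which largely restates the higher density there. The median gap to the next region was 39776.5 bp in hippocampus against 50900 bp elsewhere, and 67333 against 91204 bp in ventricle. A neighbour within 10 kb followed 18.3% of the hippocampal distal regions (14.8% elsewhere) and 13.6% of the ventricular ones (10.04% elsewhere).

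Few distal sites were listed in both tissues. By at least 1 bp, 93 hippocampal distal regions (8.05%) overlapped a ventricular region, against 6.01% of other autosomal regions. Of the ventricular distal regions, 92 (14.2%) overlapped a hippocampal one, against 11.3%. Overlap by chance rises with the density of the other list, which was also higher at the ends. The shares were not corrected for that, so more sharing at the ends is not shown. The centromere-proximal regions overlapped at 7.37% and 13.4%. With a reciprocal overlap of 50%, the shared distal regions numbered 51 (4.42%) in hippocampus and 50 (7.72%) in ventricle.

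Distal regions held a share of the reads close to their share of the regions, and below it in 7 of the 8 pools. Of the autosomal counts, the distal regions held 4.96% and 5.35% in sham hippocampus and 4.74% and 4.84% in irradiated hippocampus. They held 5.32% and 5.45% in sham ventricle and 5.38% and 5.28% in irradiated ventricle. The hippocampal irradiated pools lay below both sham pools, whereas the ventricular dose groups overlapped. The hippocampal shares differed by -0.364 percentage points (sham 5.16 ± 0.275, irradiated 4.79 ± 0.0678, SD, n = 2; exact permutation test, two-sided, p = 0.33). The ventricular difference was -0.0567 points (5.39 ± 0.0914 and 5.33 ± 0.0733, SD, n = 2; exact permutation p = 0.667). With 2 pools against 2, p cannot go below 0.33. Adjusted over the 4 comparisons of this family, these p-values were 0.444 and 0.667 (exact permutation tests, Benjamini-Hochberg). The hippocampal difference was -0.558 points without sham pool 1 and -0.169 without sham pool 2. Its direction turned to 0.238 points when 12 high-count regions of that list, those over 20 times the median region in mean CPM (counts scaled to the pool's total), were left out. The ventricular one turned to 0.439 and 0.734 points with limits of 2.5 and 10 Mb, and to 0.00786 without sham pool 2.

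Between tissues, the distal share was 4.97 ± 0.266% in hippocampus and 5.36 ± 0.0752% in ventricle (SD, n = 4), a difference of -0.387 points that did not pass an exact permutation test (two-sided, p = 0.0857, adjusted 0.171). The shares are taken over different region lists, in which distal regions made up 5.32% of the autosomal regions in hippocampus and 5.63% in ventricle. A difference in the lists and a difference in reads are therefore not separated here. Without the second hippocampal sham pool, whose share of 5.35% lay among the ventricular values, the difference was -0.512 points. Its exact permutation p of 0.0286 is the smallest that this split of pools can give. With limits of 2.5 and 10 Mb the difference was -0.0701 and -0.303 points (exact permutation p = 0.8 and 0.314). It was -0.229 points without the high-count regions (exact permutation p = 0.457).

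Per kilobase of region, distal regions carried slightly fewer reads than other autosomal regions in every pool. The sign of the mean difference depended on a few very tall regions, though not in every pool. The log2 ratio of distal to other counts per kb was -0.12, -0.01, -0.19 and -0.16 in the hippocampal pools (sham 1 and 2, irradiated 1 and 2). It was -0.09, -0.06, -0.08 and -0.11 in the ventricular pools. All 8 values lay below 0, with a mean of -0.10 ± 0.0576 (SD, n = 8; exact sign-flip permutation test, p = 0.0078, the smallest that 8 pools can give, adjusted 0.0313). The 4 pools of a tissue share 1 region list, so the 8 values are not independent replicates of this contrast. Each p-value in this paragraph describes pools only. By tissue, the means were -0.12 in hippocampus and -0.08 in ventricle (n = 4 each). With 4 pools the same test cannot reach 0.05 in either tissue. Without the 12 high-count regions of each list the mean of all 8 pools was 0.05 ± 0.0855, with 5 of 8 pools above 0 (exact permutation p = 0.141). Hippocampal sham pool 1 stayed at -0.09, ventricular irradiated pool 1 at -0.04 and ventricular sham pool 2 at -0.003. With regions of 2544 bp alone, tall ones included, the mean was -0.10 ± 0.0901, with 7 of 8 pools below 0 (exact sign-flip permutation p = 0.0156). The 12 high-count regions are unevenly placed. A single one of these 12 is distal in each tissue, while 9 in hippocampus and 11 in ventricle lie elsewhere on the autosomes, 6 of them in each tissue at the centromere-proximal end.

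**Figure D3:**
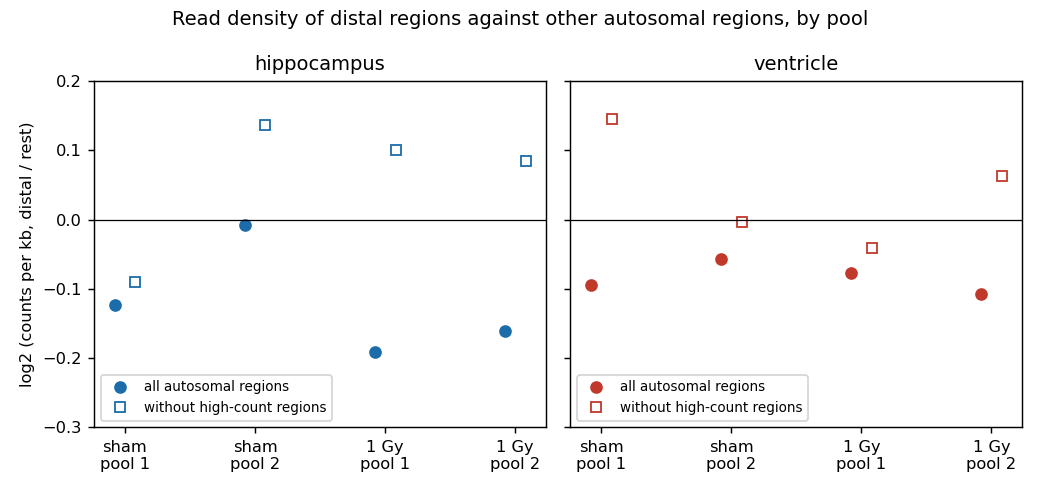
Log2 ratio of counts per kb in distal regions to counts per kb in other autosomal regions, for each pool of hippocampus (left) and ventricle (right), with all regions (filled) and without high-count regions (open). The filled points lie between -0.19 and -0.01, all below 0, whereas the open points lie on both sides of it.

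The typical distal region had about as many reads as the typical region elsewhere. Its median count was higher in 5 of the 8 pools and lower in 1, ventricular irradiated pool 1. The median distal counts of sham pools 1 and 2 and irradiated pools 1 and 2 were 12, 4, 72 and 63 in hippocampus, against 12, 3, 65 and 58 for other autosomal regions. In ventricle they were 4, 0, 7 and 5, against 2, 0, 8 and 4. Distal regions without any read made up 6.93% and 20.7% of the list in sham hippocampus (5.78% and 24.7% elsewhere). In both irradiated pools, which are much deeper, they were 0 of 1155 (0.0243% and 0.0389% elsewhere). In the same order of ventricular pools these shares were 34.7%, 50.2%, 21.1% and 30.9%, against 38.5%, 54.9%, 20.5% and 33.8% elsewhere. A region without reads in a pool can hold up to 3 counts by the usual limit for a count of 0, so absence of the mark there was not shown.

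Within the ends, reads per region rose with the number of regions in some pools and not in others. In irradiated hippocampal pool 1 the mean count per region ran from 26.0 on chromosome 18 to 95.8 on chromosome 4. In irradiated pool 2 it ran from 28.6 on chromosome 18 to 79.8 on chromosome 8, and in sham pool 2 from 2.62 on chromosome 18 to 6.78 on chromosome 5. Sham pool 1 had the reverse order, from 9.74 on chromosome 4 to 15.5 on chromosome 18. The Spearman correlation of reads per region with the number of regions over the 19 ends was 0.950 and 0.935 in the irradiated pools, 0.710 in sham pool 2 and -0.524 in sham pool 1.

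Ventricle had the same split with a different pool apart. There the correlation was 0.414 and 0.731 in the sham pools, 0.759 in irradiated pool 2 and -0.579 in irradiated pool 1. In irradiated pool 1 the chromosome 18 end had the most reads per region, 12.7, and the chromosome 11 end the fewest, 5.64. These correlations describe ends of one genome that share a library, and no p-value is attached to them. They are not given for windows away from the ends, so the split is not shown to be particular to the ends. The 2 pools with negative values are 1 of 2 in their group, so a dose contrast over the ends includes this difference between pools of the same dose.

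**Figure D4:**
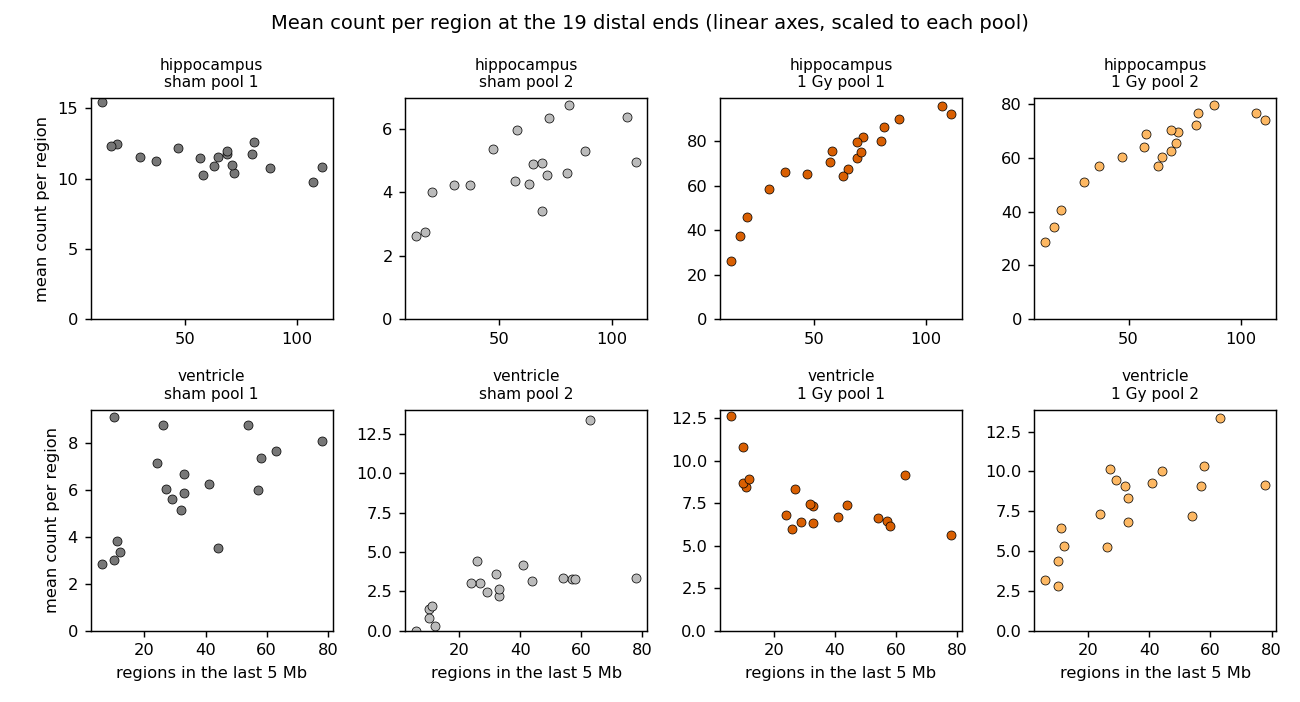
Mean count per region at each of the 19 distal ends (vertical axis, scaled to each pool) against the number of regions there (horizontal axis), 1 panel for each pool, hippocampus above and ventricle below. Points climb to the right in both irradiated hippocampal pools, from 26.0 to 95.8 counts in pool 1, and descend in hippocampal sham pool 1 and ventricular irradiated pool 1.

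No distal region passed the dose test in either tissue. In hippocampus 1139 of the 1155 distal regions had enough reads to be tested, and 0 passed a false discovery rate (FDR) of 0.05 with edgeR, as did 0 of all 21498 tested regions (0.0%). At an unadjusted p under 0.05 there were 12 distal regions, against a background of 1.04% of all regions. DESeq2 called 0 distal regions (0.00465% of all), with 34 at an unadjusted p under 0.05 (2.99%, with 3.50% of all regions). In ventricle 139 of 648 distal regions were tested and 0 passed with edgeR (0.0% of all 2252). At an unadjusted p under 0.05 there were 4 against a background of 2.53%, and DESeq2 called 0, with 10 at an unadjusted p under 0.05 (7.19%, with 7.42% of all regions). With each hippocampal pool thinned to the smallest total, 0 of 24 tested distal regions passed edgeR's FDR (0.613% of all). Thinned in the same way, 0 of 22 passed in ventricle (0.0% of all). With at least 20 counts in 2 pools required, 0 of 5 passed in ventricle (2.34% of all).

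Over all members, without a filter, hippocampal regions more often had both irradiated pools above both sham pools than below. Scaled by TMM, 300 distal regions (26.0%) had irradiated pools above and 86 (7.45%) below, against backgrounds of 22.1% and 8.42% over all hippocampal regions. This split depended on the scaling: total counts gave 165 above (14.3%, with 12.2% of all regions) and 160 below (13.9%, with 14.3%). Size factors gave 202 above (17.5%, with 15.1%) and 140 below (12.1%, with 12.4%). Loess offsets gave 161 above (13.9%, with 13.4%) and 162 below (14.0%, with 15.1%). In ventricle 155 distal regions (23.9%) had irradiated pools above and 45 (6.94%) below, with backgrounds of 23.7% and 5.8%. Loess offsets gave 114 above (17.6%, with 17.2% of all regions) and 97 below (14.97%, with 11.7%). Among tested hippocampal regions the median log2 fold change was 0.22 for distal and 0.11 for all regions with TMM scaling, -0.16 and -0.27 with total counts, and -0.24 for both with loess offsets.

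The hippocampal calls changed with the sham pool used. Without sham pool 1, 188 distal regions passed edgeR's FDR, 120 of them higher after irradiation, with 15.4% of all tested regions passing. Without sham pool 2, 267 passed, 228 of them higher, with 20.6% of all passing. In each of these fits the lone sham pool is assumed to vary like the irradiated pools. Distal regions called in the same direction in both fits numbered 9 (0.779% of the distal regions, with 0.978% of all regions), of which 8 were higher and 1 lower. Those called in opposite directions numbered 33 (2.86%, with 2.58% of all regions).

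The hippocampal regions with the smallest p-values show what the counts look like. Coordinates are those of build mm9, and values given in fours follow the order sham pools 1 and 2, then irradiated pools 1 and 2. The region at chr1:193731471-193734219 had 5 and 0 sham counts, and 104 and 130 after irradiation. At the shared scale these are 15.8, 0, 63.2 and 89.0 CPM, a log2 fold change of 2.86 (SE 1.02, edgeR FDR 1.00). The dose groups do not overlap. The region at chr2:179458238-179460949 had 5, 1, 102 and 76 counts, or 15.8, 8.58, 62.0 and 52.1 CPM, again without overlap (log2 fold change 2.08, SE 0.80). The region at chr9:123780730-123783273, 130 kb from the end, had 0 and 2 counts against 116 and 72. With so few sham counts its scaled ratio of 13.1 has a 95% counting interval from 3.57 to 109. The regions on chromosomes 1 and 2 passed edgeR's FDR without sham pool 2.

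Lower values after irradiation were found at 3 sites where the sham counts were not far below those of the much deeper irradiated pools. The region at chr3:157609599-157612142 had 17 and 11 sham counts, and 23 and 13 after irradiation. Scaled, these are 53.8 and 94.4 against 14.0 and 8.90 CPM (log2 fold change -2.62, SE 0.74, edgeR FDR 1.00). At chr12:120665023-120667566 the scaled values were 50.6 and 85.8 against 15.8 and 15.8 CPM. At chr10:127810118-127812661 they were 47.4 and 94.4 against 15.8 and 16.4 CPM. Sham pool 2 was the higher sham pool at each of the 3, and the groups do not overlap. Without sham pool 1 all 3 regions passed edgeR's FDR, and without sham pool 2 the chromosome 3 region did. The end of chromosome 3 is among the sparse ones, as is that of chromosome 12.

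In ventricle the smallest p-values fell on regions with no read in either pool of one dose. Such a region can pass the read filter only through the dose that has reads, and 139 of 648 distal regions passed. The fold bounds given here are therefore descriptions of selected regions, not support for a dose effect. The region at chr5:150419903-150423458 had 0 counts in both sham pools but 17 and 23 after irradiation, at least 6.46-fold higher when a sham pool is given the limit of 3 counts (at least 4.15-fold with total counts). At chr15:100459221-100461764 the irradiated counts were 12 and 21 (at least 5.12-fold, 3.37-fold with total counts), and at chr9:122432741-122435284 they were 13 and 17 (at least 4.87-fold, 3.12-fold with total counts). The reverse pattern was seen at chr15:101688365-101690908, with 18 and 22 sham counts and none in the irradiated pools, at least 6.62-fold lower (10.8-fold with total counts, 4.95-fold with size factors). At chr8:129434521-129437263 the sham counts were 25 and 14 (at least 6.26-fold lower, 9.55-fold with total counts, 4.79-fold with size factors). At chr14:123565510-123568053 they were 10 and 19 (at least 4.88-fold lower, 8.20-fold with total counts, 3.60-fold with size factors). None passed the FDR, the edgeR value being 1.00 for each.

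The tallest distal region by mean CPM lay at the same site in both tissues. It was a 2544 bp region at chr5:148421617-148424160, listed in ventricle 1 bp earlier. In hippocampus it had 169 and 134 sham counts, and 1328 and 1204 after irradiation, or 535, 1150, 807 and 825 CPM. The irradiated pools lay between the sham pools (log2 fold change -0.04, SE 0.86). In ventricle its counts were 139, 664, 109 and 293, or 4169, 23366, 4700 and 6758 CPM, so that sham pool 2 alone stood high (log2 fold change -1.26, SE 0.85, and 0.33 without that pool). In that pool this region held 664 of the 2637 distal counts. It is the 1 distal member of the high-count regions in each tissue.

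The second tallest region of each tissue lay in the last 55.2 kb of chromosome 2, at different sites. In hippocampus this was chr2:181651071-181653724, with 8, 18, 304 and 323 counts, or 25.3, 154, 185 and 221 CPM. Its neighbour chr2:181663937-181666489, 42.3 kb from the end, had 4, 15, 365 and 282 counts, or 12.7, 129, 222 and 193 CPM. At both sites the irradiated pools lay above the sham pools, and the sham pools differed from each other by more than the nearer one differed from the irradiated pools. Their log2 fold changes were 1.22 (SE 1.05) and 1.61 (SE 1.15), 3.03 and 4.05 without sham pool 2, and 0.36 and 0.66 without sham pool 1. They passed edgeR's FDR without sham pool 2 and did not without sham pool 1. The third tallest hippocampal region, chr13:120278029-120282627, ended 717 bp before the last listed base of its chromosome. It had 5, 18, 349 and 258 counts, or 15.8, 154, 212 and 177 CPM, the same order of pools (log2 fold change 1.24, SE 1.13, 3.64 without sham pool 2 and 0.30 without sham pool 1).

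The second tallest ventricular region, chr2:181664432-181667477, lay over the site nearer the end and had 32, 22, 8 and 20 counts. Scaled, these are 960 and 774 CPM without and 345 and 461 CPM with irradiation, with no overlap but the opposite direction to hippocampus (log2 fold change -1.09, SE 1.11). Fitted together as a pair, the tissues' log2 fold changes differed by 2.41 (SE 1.59, hippocampus minus ventricle, edgeR FDR 0.565). The ventricular region over the first site had 7, 3, 0 and 29 counts. The third tallest ventricular region, chr15:102235318-102237861, had 7, 7, 0 and 96 counts, so irradiated pool 2 alone carried its height.

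Among the 733 regions that pair one to one between the tissues by a reciprocal overlap of 50%, 50 were distal and 41 of these were tested. None passed the FDR for a dose by tissue difference with edgeR (0.0% of all 600), and DESeq2 called 0. At an unadjusted p under 0.05 there was 1, against a background of 8.83%. The remaining pairs among the 5 with the most reads lay on chromosomes 11 and 14. At chr11:120112709-120116748 the hippocampal counts were 21, 3, 222 and 148 and the ventricular counts over it 4, 0, 0 and 37. At chr14:120762983-120767707 they were 12, 12, 158 and 161 in hippocampus and 0, 6, 0 and 25 in ventricle. At both, ventricular irradiated pool 1 had no read and irradiated pool 2 had the most.

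The widest hippocampal distal region, chr4:154835269-154841727 (6459 bp), had 6, 18, 180 and 163 counts, with the irradiated pools between the sham pools once scaled (18.98, 154, 109 and 112 CPM). The widest ventricular one, chr15:100866717-100872716 (6000 bp), had 11, 15, 4 and 40 counts. At the 5 Mb limit, the last hippocampal region inside started 4999461 bp from the end of chromosome 9 and had 16, 9, 124 and 115 counts. The first outside, on chromosome 11, had 13, 0, 82 and 73. In ventricle the last region inside, on chromosome 1, had 0, 0, 2 and 43 counts, and the first outside, on chromosome 9, had 6, 12, 0 and 19. That ventricular region, starting at 118910277, overlaps the hippocampal region starting at 118911173, so the limit puts the 2 lists' versions of this site on different sides.

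Summed over each end, no end passed the dose test. The counts of each 5 Mb window, laid back from the largest listed end, were fitted with edgeR over 489 windows in hippocampus and 483 in ventricle. Of the 19 end windows, 0 passed the FDR in hippocampus (0.0% of all windows), with 0 at an unadjusted p under 0.05 (background 10.2%), and DESeq2 called 0 while it called 2.66% of all windows. With total counts, with the pool number as a block and with crossed numbers, 0 ends passed as well (0.204% of all windows each). In ventricle 0 passed (0.0%), with 1 at an unadjusted p under 0.05 (background 3.93%), and DESeq2 called 0. In hippocampus 7 ends had both irradiated pools above both sham pools (chromosomes 7, 8, 9, 11, 15, 16 and 19; background 23.5%) and 5 had them below (chromosomes 3, 10, 13, 17 and 18; background 22.3%). In ventricle 4 ends lay above (chromosomes 2, 3, 12 and 17; background 17.2%) and 3 below (chromosomes 6, 8 and 19; background 15.9%). These directions use TMM scaling. The log2 fold change was above 0 at 12 of the 19 hippocampal ends with TMM, 4 with total counts and 6 with loess offsets. In ventricle it was above 0 at 8, 12 and 13 ends. With total counts the median of all windows moved too, to -0.24 in hippocampus and 0.26 in ventricle.

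The end of chromosome 18 had the lowest hippocampal log2 fold change, -1.17 (SE 0.47, edgeR FDR 0.465). Its 13 regions summed to 201 and 34 sham counts and to 338 and 372 after irradiation, or 663, 309, 197 and 245 CPM, and sham pool 1 stood far above the rest. Without sham pool 1 its log2 fold change was -0.49, and without sham pool 2 it was -1.59 and passed the FDR. The highest was the end of chromosome 11, with 1205, 550, 10199 and 8232 counts, or 3977, 4998, 5943 and 5426 CPM (log2 fold change 0.35, SE 0.19, FDR 0.490, 0.19 without sham pool 1, 0.52 without sham pool 2 and -0.02 with loess offsets). Of the 5 ends with sparse regions, 4 had both irradiated pools below the sham pools (chromosomes 3, 13, 17 and 18). Of the 14 dense ends, 7 had them above and 1 below. No such split is given for region-poor and region-rich windows away from the ends. It is therefore not shown to be particular to the ends.

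In ventricle 4 of the 5 sparse ends had a log2 fold change above 0. The end of chromosome 18 had 17, 0, 76 and 19 counts (log2 fold change 1.97, SE 1.57), so that irradiated pool 1 held most of its reads. With sham pool 2 or either irradiated pool left out, its log2 fold change ran from 0.57 to 2.67. The chromosome 17 end held 40, 4, 107 and 64 reads (1.38, SE 0.89). The smallest ventricular p belonged to the end of chromosome 6, with 228, 115, 156 and 137 counts, or 2888, 2790, 1549 and 1241 CPM, where both irradiated pools lay well below both sham pools (log2 fold change -1.03, SE 0.33, edgeR FDR 0.996). In hippocampus the same end had 2271, 2445, 2351 and 2373 CPM (log2 fold change 0.01).

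Ranked by region number, the ends had a Spearman correlation with the dose log2 fold change of 0.836 in hippocampus and -0.528 in ventricle (19 ends each, given as descriptions). In hippocampus it was 0.541 without sham pool 1, 0.916 without sham pool 2 and 0.164 with loess offsets. In ventricle it ran from -0.761 to -0.291 when pools were left out in turn, the latter without irradiated pool 1, and was -0.348 with loess offsets. The pools that had the reverse order of reads per region, hippocampal sham pool 1 and ventricular irradiated pool 1, sit on opposite sides of the dose contrast in the 2 tissues, and their part in these correlations was not tested beyond leaving each out. With total counts the median log2 fold change of all hippocampal windows moved from -0.01 to -0.24, and 13 of the 19 ends lay above that median, against 12 with TMM and 8 with loess offsets. In ventricle 8 ends lay above the median of all windows with TMM or total counts and 13 with loess offsets. The correlations with region number are not given for windows away from the ends.

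**Figure D5:**
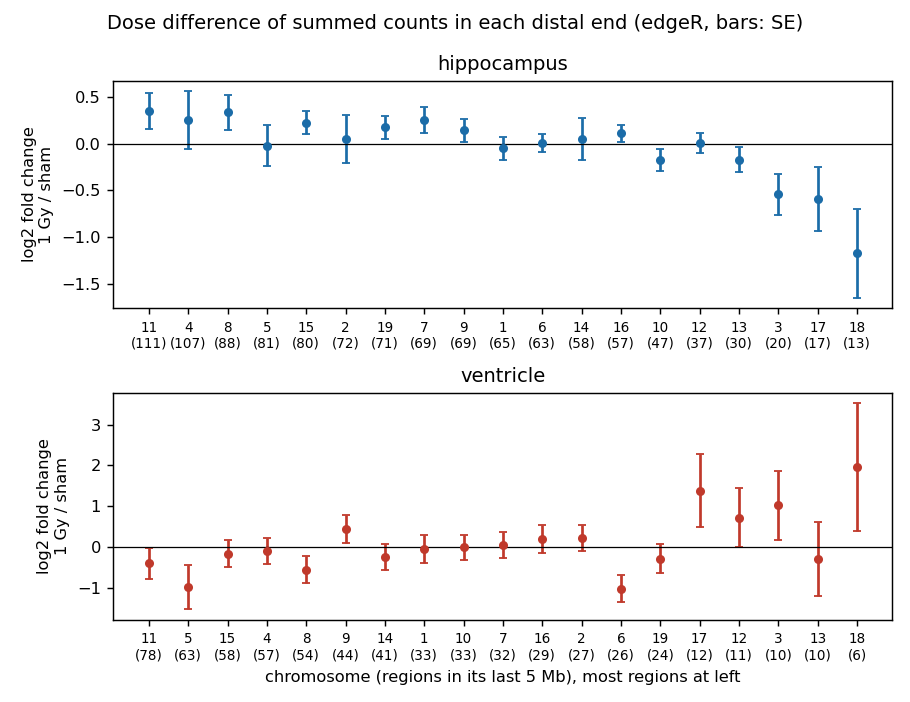
Log2 fold change of summed counts, 1 Gy over sham, in each distal end (points, bars are SE from edgeR), with chromosomes ordered by their number of distal regions (in brackets), hippocampus above and ventricle below. Hippocampal values run from 0.35 for chromosome 11 at the left to -1.17 for chromosome 18 at the right, and the ventricular chromosome 18 end stands at 1.97.

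When a single hippocampal sham pool was kept, the number of ends that passed changed. Without sham pool 2, 12 ends passed edgeR's FDR, 9 higher (chromosomes 2, 4, 5, 8, 9, 11, 14, 15 and 19) and 3 lower (chromosomes 3, 17 and 18), while 58.1% of all windows passed. Without sham pool 1, only the end of chromosome 7 passed (log2 fold change 0.43), with 5.11% of all windows. In the test of the dose by tissue difference over 488 windows, 0 of 19 ends passed with edgeR (0.0%) and 2 had an unadjusted p under 0.05 (chromosomes 6 and 8; background 8.61%). DESeq2 called 1, the end of chromosome 6 (1.07, hippocampus minus ventricle), and 1.23% of all windows. With edgeR that end's difference was 1.03 (SE 0.29, FDR 0.380).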

How the data were processed

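The files the authors deposited hold raw read counts per region of one merged list per tissue, 1 file for each of the 8 pools. Per the submitters' processing notes, Bowtie 1.0.0, CASAVA 1.8.2 and DESeq2 were used, with the build mm9, in roles the notes leave out. No source used here gives the peak caller, the merging of peaks or the handling of duplicates. Every start was raised by 1 on the reading that the intervals are in BED form. No mm9 annotation or genome was used, so no gene or sequence is named. Groups of tissue and dose were taken from the labels.

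Dose was tested per region and per 5 Mb window with edgeR 4.0.16 (R 4.3.3; TMM, filterByExpr, quasi-likelihood F-test, Benjamini-Hochberg FDR 0.05) over each tissue's whole table. The dose by tissue difference was tested over paired regions and windows. The biological coefficient of variation was 0.602 for hippocampal and 1.44 for ventricular regions, and the median SE of a log2 fold change 0.95 and 2.38. Shares were compared by exact permutation over pools. Intervals are 95% exact (Clopper-Pearson) and, like the limit of 3 counts, cover no more than counting error, as no molecular identifiers separate molecules from PCR copies. How mice were divided between the pools is not stated, so p-values measure only the spread between pools, which may be technical. CPM values are TMM-scaled within a tissue. The direction of fold changes was checked on simulated counts with a dispersion of 0.05. Of simulated 2-fold changes that could be tested, 100% in hippocampal and 97.4% in ventricular regions had the right direction. That dispersion is less spread than the regions had, so the check does not give the power of the region tests.

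Alternatives were DESeq2 1.42.0, size factors, total counts, loess offsets (limma 3.58.1), other filters, an FDR of 0.1, limits of 2.5 and 10 Mb, a replicate block and each pool left out. Thinning to equal depth, crossed pairs, regions of 2544 bp alone, median counts, direction counts by scaling and the window test of the dose by tissue difference were chosen after seeing the data. Members, lists and tests were chosen with earlier results of these data known. Named regions are those with the smallest p (3 in each direction), the 3 with the highest mean CPM, the 5 pairs with most reads, the extreme ends, the widest, and those nearest the 5 Mb limit and the chromosome end. Regions on chromosomes X and Y were left out of the comparisons between distal and other regions.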

Additional observations from a re-analysis of the deposited data

Results flagged for a closer look

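At 4 chromosome ends and 1 paired site, every irradiated pool lay on one side of the sham pools in hippocampus and on the other side in ventricle. All differences are log2 fold changes, hippocampus minus ventricle, tested in a model of both tissues with edgeR. At the end of chromosome 3 the difference was -1.57 (SE 0.78, FDR 0.590), with 825 and 727 CPM in the sham and 534 and 537 CPM in the irradiated pools of hippocampus, and 380 and 340 CPM in the sham and 1072 and 399 CPM in the irradiated pools of ventricle. At the end of chromosome 17 it was -1.95 (SE 0.99, FDR 0.590), and ventricular sham pool 2 held 4 counts there. At the end of chromosome 8 it was 0.88 (SE 0.34, FDR 0.516), with 3126, 4244, 4601 and 4631 CPM in hippocampus and 5991, 4391, 3574 and 3515 CPM in ventricle. At the end of chromosome 19 it was 0.45 (SE 0.29, FDR 0.683). At the paired site on chromosome 2 starting at 181663937 it was 2.41 (SE 1.59, FDR 0.565). None of these 5 differences passed the FDR. Of all hippocampal windows, 23.5% had both irradiated pools above both sham pools and 22.3% had them below. In ventricle these shares were 17.2% and 15.9%. No share of all windows or pairs with opposite sides is at hand, so such sites are not shown to be more frequent at the ends.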

How the results depend on the processing

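The counts of 0 for distal regions, ends and pairs held under every scaling, filter and threshold run, with DESeq2, and without each ventricular or irradiated hippocampal pool, except that DESeq2 called 1 end for the dose by tissue difference. Leaving out a pool gave 0 to 267 distal regions and 0 to 12 ends in hippocampus. The density ratio moved to 1.17 and 1.46 in hippocampus and to 1.24 and 1.59 in ventricle with limits of 2.5 and 10 Mb. The share difference ran from -0.558 to -0.169 in hippocampus with a pool left out and turned to 0.238 without high-count regions, and in ventricle to 0.439 and 0.734 with those limits and to between -0.121 and 0.00786 with a pool left out. The tissue difference ran from -0.512 to -0.310 with a pool left out. It was -0.0701 and -0.303 with limits of 2.5 and 10 Mb, and -0.229 without high-count regions. Counts per kb against the rest turned to 0.0491 without high-count regions and to 0.226 by median counts. Hippocampal regions above numbered 165 with total counts and 161 with loess offsets, and those below 160, 140 with size factors, and 162. Ventricular regions below numbered 97 with loess offsets.

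Among named sites, loess offsets reversed the log2 fold change on chromosome 11 at 120112709 (-0.38), chromosome 14 at 120762983 (-0.35; -0.11 when thinned), chromosome 9 at 118911173 (-0.58; -0.0656 with total counts) and chromosome 4 at 154835269 (-0.23), and at the chromosome 11 end (-0.0151 in hippocampus, 0.0032 in ventricle). With a pool left out, values ran from -0.0280 to 1.47 on chromosome 14, from -0.0331 to 0.64 on chromosome 9, from -0.51 to 2.57 on chromosome 4, from -0.52 to 0.64 for the hippocampal and -2.52 to 0.33 for the ventricular tall region on chromosome 5, and from -1.67 to 0.86 on chromosome 15 at 100866717. With a hippocampal sham pool left out, 14 values of named sites or ends newly passed the FDR. The cause of these shifts was not tested.

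The numbers were not taken to pair the pools (same-number correlations -0.0053 and -0.117 over regions, -0.116 and 0.168 over windows, hippocampus then ventricle). A replicate block gave 0 distal regions, 0 ends and 0 pairs past the FDR in each tissue, and moved the tall hippocampal region on chromosome 5 to 0.0573 and the chromosome 15 region at 100866717 to -0.0175. Crossed pairs gave 0 ends in hippocampus and 0 distal regions in ventricle. Depth limits the ventricle most, where 509 of 648 distal regions were too low to test.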

Other observations

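Regions of the outermost megabase held fewer reads than those farther in, in 3 of the 4 hippocampal pools. In hippocampus the mean count per region in the outermost megabase was 12.2, 4.10, 64.6 and 56.0 in sham pools 1 and 2 and irradiated pools 1 and 2. Between 4 and 5 Mb it was 10.7, 5.15, 82.5 and 71.97, and between 3 and 4 Mb, which holds the tall chromosome 5 region, 11.5, 5.58, 84.1 and 74.2. Sham pool 1 was the exception. In ventricle the outermost megabase had 6.60, 2.54, 6.60 and 7.88 counts per region, the megabase between 4 and 5 Mb had 6.07, 2.94, 6.81 and 9.05, and that between 3 and 4 Mb had 8.41, 8.67, 7.15 and 9.60. These are values of single pools over 19 ends, with no test attached.

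The ventricular region nearest a chromosome end without defining it, chr17:95226165-95228708, ended 5405 bp from the last listed base and had 8, 1, 0 and 19 counts in sham pools 1 and 2 and irradiated pools 1 and 2.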
